A study of Homo sapiens with 4 samples.

Results

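Alternative exon end forms are versions of one exon that begin or stop at different bases. In IMR-32, a MYCN-amplified line long established from a human neuroblastoma, 21433 such forms in 6389 genes were examined, of 182461 events of all classes listed for the same libraries. A form was a row whose event type was AE, or XAE, read here as the approximate version of the same class, in any of the 4 event tables. Rows without an Ensembl gene were left out, a form listed under both codes was counted once, and a form that a library did not list was given 0. Values were FPKM, fragments scaled for transcript length and library size.

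All 4 libraries came from poly(A) RNA of IMR-32 cells that stably carried a hairpin RNA induced with doxycycline at 1 µg/mL for 48 h. The 2 shControl libraries carried the control hairpin and the 2 shNeuroD1 libraries hairpins against NeuroD1, a neurogenic transcription factor of the basic helix-loop-helix family. The methods describe 2 NeuroD1 hairpins, numbered as the titles of these libraries are, and whether the 2 libraries carried different hairpins or were repeats of 1 is not stated in the labels. The labels also did not say whether the transduced cells were cloned, or whether same-group libraries were cultured separately, so p-values measure only the spread between these libraries. The question was whether the choice of exon ends differed after NeuroD1 knockdown.

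Every exon between introns is bounded by an acceptor site at its 5′ end, where the upstream intron stops with AG, and a donor site at its 3′ end, where the downstream intron starts with GT. U1 particles recognise the donor, and U2AF and U2 particles recognise the acceptor and the bases before it. SR proteins and hnRNP proteins bind nearby RNA and shift the choice where several sites compete. A second acceptor or donor inside the exon or the intron then adds or removes a segment, which keeps the reading frame when its length is a multiple of 3.

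The count table held between 14665210 and 16482463 counts per library. NEUROD1 was 417 ± 3.10 CPM (counts scaled to library size; SD, n = 2) in shControl and 60.9 ± 3.90 (SD, n = 2) in shNeuroD1, and the edgeR test gave a log2 fold change of -2.77 (SE 0.05) at an adjusted p of 8.59e-29. Of the 12 noradrenergic neuroblastoma markers, 10 had a mean of at least 10 CPM. None of the 4 white blood cell, 4 epithelial or 4 glial markers reached that level, and 2 of 6 fibroblast markers did. A library listed between 16613 and 17027 forms, 13317 forms were listed in all 4 libraries, and 3991 in only 1. Of the 21433 forms, 85.1% matched an exon of GENCODE 29 base for base.

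The segments between competing ends carried the letters of a splice site at the inner end. Forms of a gene that shared 1 boundary and differed at the other were joined into pairs, 1 pair of highest level for each set of overlapping forms, and 3877 pairs in 2647 genes had a mean summed level of at least 5 FPKM. Of these, 2266 differed at the acceptor and 1611 at the donor. The segment could be read from GENCODE transcripts for 1874 acceptor and 1190 donor pairs. It ended with AG in 1870 (99.8%) of the acceptor pairs, against 50.9% of the donor segments, and it started with GT in 1167 (98.1%) of the donor pairs, against 14.0% of the acceptor segments. A further 17 donor segments started with GC. Before the AG of the inner acceptor stood C in 72.8% of the segments, T in 17.3%, A in 8.38% and G in 1.17%.

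The shortest common change was a pair of acceptors 3 bases apart, in which the spliceosome has 2 consecutive NAG triplets to choose from. There were 44 such pairs, and in 31 of the 43 with a readable segment the added triplet was CAG. Those printed are coding pairs among the more highly expressed ones, shown because the added triplet is the whole difference between the forms. Each line starts at the first base of the longer exon, 5′ to 3′, with the triplet present only in the longer form in capitals, from GENCODE 29 transcripts on GRCh38.
H2AFY, chr5:135360593-135360607, minus strand: AAGaagcagggtgaa
METAP2, chr12:95476071-95476085, plus strand: CAGgggaacaggaac
SAFB, chr19:5661518-5661532, plus strand: CAGggtgcgtgaacg
NAA50, chr3:113724081-113724095, minus strand: TAGccggatcgagct
FOXM1, chr12:2864741-2864755, minus strand: CAGcagcagaaacga
SAMD11, chr1:939272-939286, plus strand: CAGaggcgctgctgc

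Longer segments are shown for pairs whose longer form had a share that did not overlap between the groups. The first 4 are acceptors of genes described later, in which the capitals are the last bases of the segment, up to the AG used by the shorter form. The last is a donor of EIF4B, in which the capitals are the segment that follows the shorter exon and starts with GT.
MCMBP, 22 bases, chr10:119853161-119853190, minus strand: ATGTTAATGCAAACCAAGctcgagtcagtc
TATDN3, 24 bases, chr1:212812233-212812262, plus strand: TCTCTTTTCTCTAAGAAGcagaaacttgtg
NCAPD3, 74 bases, chr11:134168517-134168546, minus strand: TCTACAAATTTCTTCTAGagcacttcacag
SMC4, 75 bases, chr3:160401972-160402001, plus strand: CTCCTCCCCCGCCTCCAGcaatgaccaatg
EIF4B, 15 bases, chr12:53034698-53034724, plus strand: catctagcagaaGTAAGTCAGACCAGG

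Distances that kept the reading frame were common where the segment was coding. Over all pairs the median distance was 75 bases, 62 for acceptors and 114 for donors, and 41.6% of distances were multiples of 3. Among the 1773 pairs whose segment was coding in GENCODE the figure was 52.2%, and among the 1177 of these no more than 60 bases apart it was 54.0%. It was 36.8% of 247 pairs in the 5′ UTR, 29.6% of 54 in the 3′ UTR and 31.1% of 649 in transcripts with no coding frame. These places were read only from the transcripts that hold the longer exon.

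**Figure D1:**
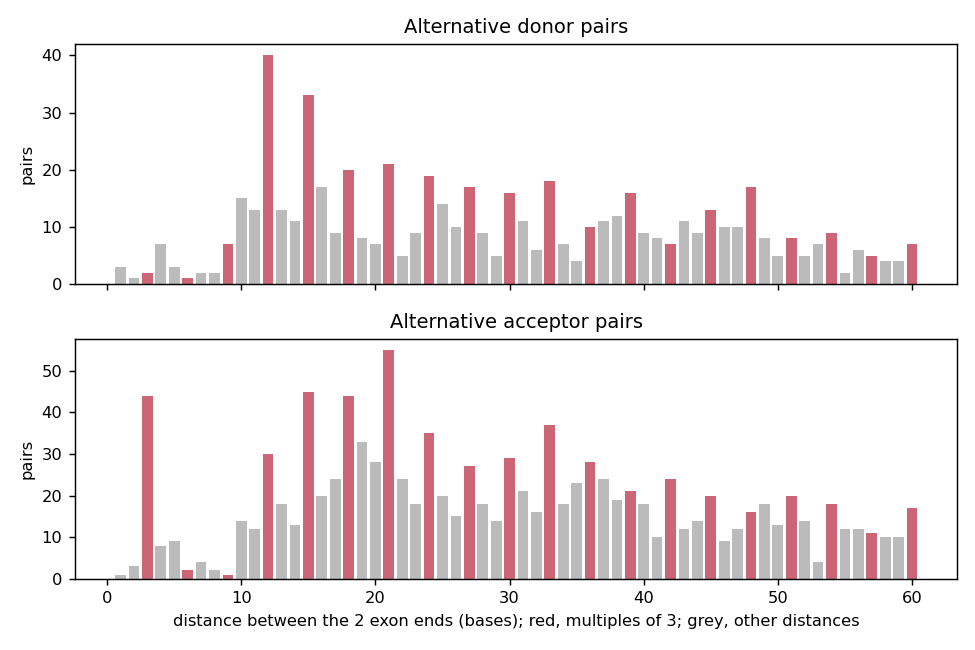
Number of donor pairs (top) and acceptor pairs (bottom) at each distance from 1 to 60 bases between the 2 exon ends, with multiples of 3 in red. Acceptor pairs peak at 3 bases (44 pairs) and at 21, and red bars stand above most of their neighbours in both panels.

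The balance between the forms of a pair also went with the frame. The longer form made up between 10% and 90% of the pair's FPKM, as a mean of the 4 libraries, in 41.7% of the 635 coding pairs up to 60 bases whose distance was a multiple of 3. The same held for 18.8% of the 542 coding pairs up to 60 bases with another distance, where the longer form took over 90% in 58.3%. Of the 44 acceptor pairs at 3 bases, 36 had a balance between 10% and 90%. Where the longer exon lay only in transcripts with no coding frame, the longer form was under 10% in 76.3% of pairs. The class was read from the longer exon alone, and the shorter form may be coding. This balance may therefore follow from how the class was defined, which was not tested. These shares are descriptions over pairs, which are not replicates.

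Several 3-base acceptor pairs gave nearly the same share in every library, and the genes named here were picked after their values were seen. In FOXM1, a cell cycle transcription factor, the longer form took 4.75% and 1.16% of the pair in shControl and 2.31% and 1.25% in shNeuroD1. In IP6K2, an inositol hexakisphosphate kinase, it took 40.1% and 43.2% in shControl and 41.0% and 45.6% in shNeuroD1. In TPRKB, a subunit of the tRNA-modifying KEOPS complex, the shControl values were 67.1% and 64.3%, and the shNeuroD1 values 69.8% and 64.7%. Groups overlapped in all 3 genes. Over the 44 pairs, 11 stayed within 10 percentage points across the 4 libraries, and 6 spanned over 50 points.

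Other pairs of this kind had groups that did not overlap. In H2AFY, which encodes the histone variant macroH2A1, the longer form took 42.0% and 35.6% in shControl and 20.6% and 3.10% in shNeuroD1. In METAP2, a methionine aminopeptidase, it took 62.2% and 64.7% in shControl and 56.1% and 49.2% in shNeuroD1. In ENO2, the neuronal enolase, it took 15.8% and 8.84% in shControl and 40.7% and 38.2% in shNeuroD1. In SAMD11 it took 16.8% and 19.2% in shControl and 25.4% and 23.6% in shNeuroD1. A difference of at least 10 points between groups that did not overlap was seen in 9 of the 44 pairs (20.5%), 7 with the longer form lower. Over all pairs the figure was 9.74%. The 44 pairs also varied widely within groups. Their median absolute difference was 10.1 points between the shControl libraries, 6.72 between the shNeuroD1 libraries and 8.08 between the group means. Pairs such as SAFB, a scaffold attachment factor, varied as much inside a group: the longer form took 36.2% and 20.03% in shControl and 9.25% and 36.9% in shNeuroD1.

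Over all 3877 pairs the longer form took a mean share under 10% in 46.6% and over 90% in 26.1%. In the 3839 pairs with a value in each library, groups did not overlap and differed by at least 10 points in 374 (9.74%), with the longer form higher in 203 (5.29%) and lower in 171 (4.45%). The median absolute difference was 1.32 points between the shControl libraries, 1.51 between the shNeuroD1 libraries and 2.77 between the group means.

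**Figure D2:**
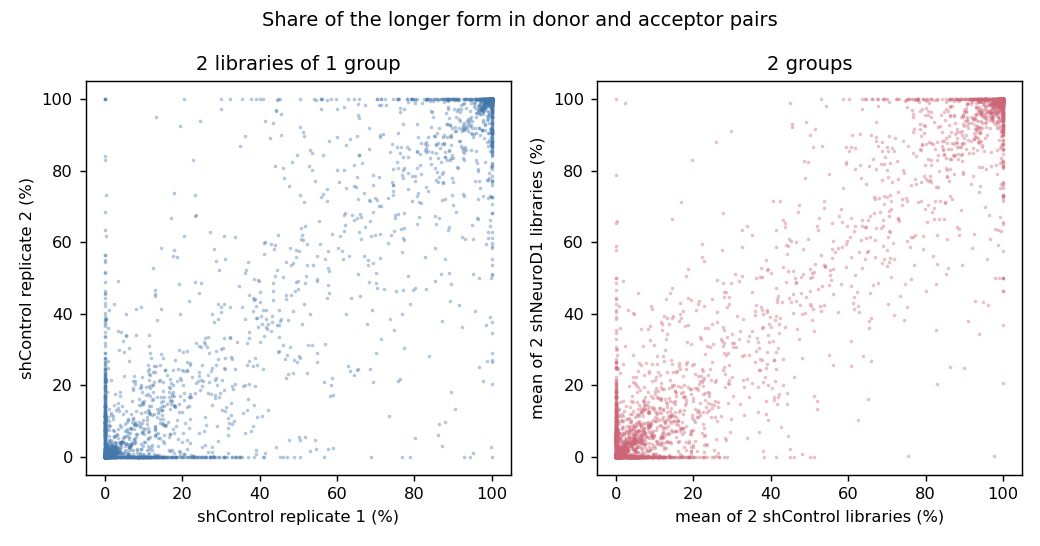
Share of the longer form (%) in each of 3839 donor and acceptor pairs, with the 2 shControl libraries against each other (left) and the means of the 2 groups against each other (right); each point is a pair. Most points lie near the corners and the diagonal in both panels, and points on the edges are pairs with a form listed at 0.

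To compare forms between the groups, the share of each form among all exon end forms of the gene it was assigned to was used. A form was tested when these forms summed to a mean of at least 5 FPKM and its mean share was between 5% and 95%, which left 8990 forms in 2847 genes. The test was limma on the log2 ratio of the form to the rest of the class in its gene, with 1 FPKM added to each, fitted together with the other event classes, and a call needed an adjusted p under 0.05 and a difference of at least 10 percentage points. No exon end form was called. Over all 55959 events tested 4 were called (0.00715%), none of them an exon end. At an unadjusted p under 0.05, 341 forms were higher and 360 lower in shNeuroD1, together 7.80% of the forms tested, against 8.62% of all events. The lowest adjusted p was 0.12. limma's diffSplice, which tests each form against the other forms of its gene and was run as an alternative, called 42 forms higher and 41 lower, and 1.14% of all events.

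The median absolute difference in share was 2.94 points between the shControl libraries, 3.07 between the shNeuroD1 libraries and 2.79 between the group means. A difference of at least 10 points was seen in 20.3% of forms within shControl, 21.1% within shNeuroD1 and 17.6% between the group means, and a mean of 2 libraries varies less than 1 library. The groups did not overlap and differed by at least 10 points in 940 forms of 568 genes, 457 higher and 483 lower, beside 6.05% higher and 5.97% lower over all events. The shares of a gene's forms sum to a fixed total, so a rise in 1 form goes with a fall in others. The forms higher and lower are therefore not independent, and the evenness of their numbers follows in part from the measure. The 940 are 10.5% of the exon end forms, beside 12.0% of all events, 7.12% of skipped exons, 12.9% of retained introns, 24.2% of transcript starts and 25.5% of transcript ends. With only the overlapping forms as the denominator, an alternative that was not made for the other classes and left 4388 exon end forms, 19.6% of the exon end forms met the same limit, beside a median difference between libraries of a group of 7.36 points in place of 3.01. At the edge of that limit stood forms of DDX19A and NPIPB5 at 10.04 and 10.05 points and of AC009948.1 and ADAM15 at 9.99 and 9.98 points.

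**Figure D3:**
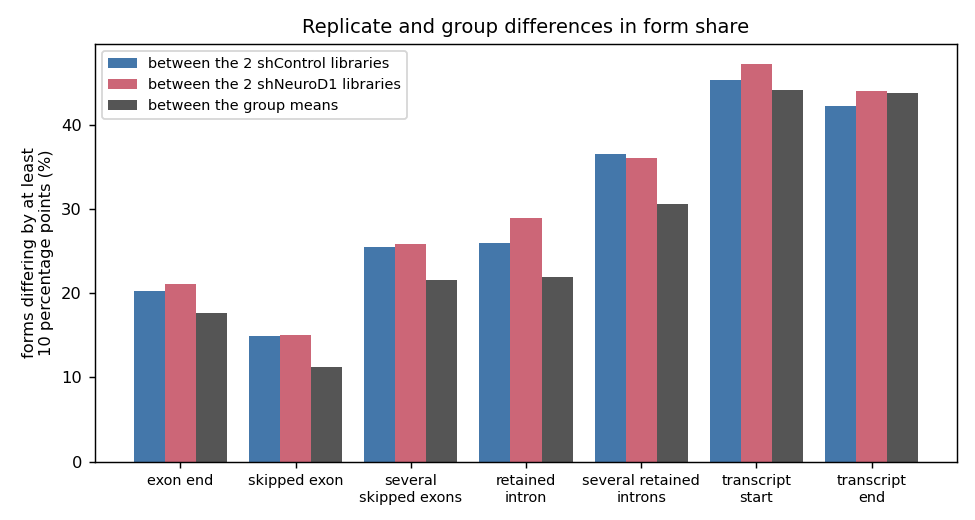
Share of tested forms (%) that differed by at least 10 percentage points between the shControl libraries (blue), between the shNeuroD1 libraries (red) and between the group means (grey), for each event class. For exon ends the bars stand at 20.3%, 21.1% and 17.6%, and in no class but transcript ends does the grey bar exceed a coloured one.

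With no call, the 20 genes taken next, of which 19 are described, are those with the smallest p among forms whose groups did not overlap and differed by at least 10 points, 1 form per gene. They are values that did not pass the test, with adjusted p between 0.12 and 0.212 (limma, Benjamini-Hochberg), and their groups differ because they were chosen so. The form's share was higher in shNeuroD1 in 7 and lower in 13, and diffSplice gave 13 of the 20 an adjusted p under 0.05. In 9 the form was listed at 0 in both libraries of a group. The tables place each assembled locus under 1 gene, and 6 of the 20 exons lie in another gene than the one assigned, so each is named here by the gene whose exon it is. Over all tested forms, 12.5% lay outside the assigned gene. In 13 of the 20, the form also differed by at least 10 points, without overlap, among the forms that overlap it. The same held for 556 (59.1%) of all exon end forms from which the 20 were taken.

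Several of the named forms were exchanges of one acceptor for another. In MCMBP, which binds the MCM helicase, the 123-base form was 6.27 and 3.51 FPKM in shControl and listed at 0 in both shNeuroD1 libraries. The 145-base form of the same exon, 22 bases longer at the acceptor, was listed at 0 in both shControl libraries and was 14.4 and 14.9 FPKM in shNeuroD1. The 2 groups thus each listed a single, different form. By counts MCMBP was lower in shNeuroD1, with a log2 fold change of -0.60 (edgeR, adjusted p = 4.27e-12).

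In NCAPD3, a subunit of condensin II, the 134-base form was 12.7 and 12.5 FPKM in shControl and 4.16 and 3.45 in shNeuroD1. The 60-base form, with an acceptor 74 bases further in, was listed at 0 in both shControl libraries and was 4.14 and 4.60 FPKM in shNeuroD1. The share of the longer form was 100% in both shControl libraries and 50.1% and 42.8% in shNeuroD1.

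In SMC4, a core subunit of both condensins, the 104-base form was 34.7 and 28.7 FPKM in shControl, listed at 0 in shNeuroD1 replicate 1 and 0.333 in replicate 2. The 179-base form, 75 bases longer at the acceptor, was 26.6 and 24.9 FPKM in shControl and 12.5 and 15.03 in shNeuroD1. Among the overlapping forms the shorter one thus took 56.6% and 53.5% in shControl and 0% and 2.17% in shNeuroD1. SMC4 itself fell by 1.503 on the log2 scale by counts (edgeR, adjusted p = 2.1e-23).

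TATDN3, a predicted deoxyribonuclease, offered 3 acceptors within 24 bases. The 102-base form was 6.21 and 5.06 FPKM in shControl and 0.00175 and 0.0219 in shNeuroD1, and its log ratio to the other forms differed by -3.84 ± 0.15 (SE, n = 2 per group). The 78-base form was 1.61 and 2.00 FPKM in shControl and 5.71 and 8.49 in shNeuroD1. The 81-base form, 3 bases from it, was 2.55 and 2.17 FPKM in shControl and 4.63 and 1.85 in shNeuroD1, where the groups overlapped. TATDN3 counts did not pass the test (log2 fold change -0.03, adjusted p = 0.75).

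In DDX39A, an RNA helicase of mRNA splicing and export, the 240-base form was listed at 0 in both shControl libraries and was 17.4 and 13.7 FPKM in shNeuroD1. The 132-base form, 108 bases shorter at the acceptor, was 32.2 and 31.5 FPKM in shControl and 5.14 and 12.0 in shNeuroD1. In EHMT2, the histone H3K9 methyltransferase G9a, a donor 21 bases further out gave a 126-base form at 0.549 FPKM and listed at 0 in shControl, and at 4.21 and 3.97 in shNeuroD1. Its 105-base form was 24.3 and 16.4 FPKM in shControl and 22.0 and 23.2 in shNeuroD1, where the groups overlapped.

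In 4 genes the longer form ran far beyond the usual end, by 2520 bases upstream in SNRNP70 and by 1838, 519 and 3697 bases downstream in NXF1, FAU and MAD2L1. In SNRNP70, the U1 particle's 70K protein that recognises donors, a 2622-base form joining 2 exons was listed at 0 in both shControl libraries and was 7.87 and 8.67 FPKM in shNeuroD1. In NXF1, the mRNA export receptor, the 1948-base form was 0.465 and 0.0869 FPKM in shControl and 4.47 and 3.24 in shNeuroD1, with a log ratio that differed by 2.25 ± 0.11 (SE, n = 2 per group). In FAU, which encodes a ubiquitin-like protein fused to ribosomal protein S30 and was listed under SYVN1, a 664-base form was listed at 0 in both shControl libraries and was 30.8 and 31.7 FPKM in shNeuroD1. MAD2L1, of the spindle checkpoint, went the other way, with a 3844-base form at 8.03 and 7.85 FPKM in shControl and listed at 0 in both shNeuroD1 libraries. The forms of SNRNP70, FAU and MAD2L1 are not GENCODE exons, whereas that of NXF1 is.

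In 7 genes the share among all exon end forms of the assigned gene differed. No difference of at least 10 points without overlap was shown in all 4 libraries among the overlapping forms. In VPS51, AP2B1 and PLPP5 the form took most or all of the overlapping forms in every library. In the others at least 1 library listed no overlapping form, so that comparison could not be made in full. VPS51, of a vesicle tethering complex, was listed with its neighbour TM7SF2. Its 220-base form was 14.2 and 12.0 FPKM in shControl and 10.3 and 9.75 in shNeuroD1. It took at least 89.3% of the overlapping forms in every library. Its share was taken among forms that include exons of TM7SF2. A 195-base form of TM7SF2 was 2.17 and 1.81 FPKM in shControl and 5.97 and 5.83 in shNeuroD1. In AP2B1, the beta subunit of the AP-2 clathrin adaptor, the 246-base exon was 7.26 and 7.99 FPKM in shControl and 31.9 and 31.7 in shNeuroD1, with no overlapping form listed. PLPP5, a lipid phosphatase listed under NSD3, had a 171-base form at 0.572 and 0.680 FPKM in shControl and 4.91 and 5.996 in shNeuroD1. Its share was taken among forms that include exons of NSD3.

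The remaining 4 of these 7 rest on forms listed at 0. CKMT1B, a mitochondrial creatine kinase with a near-identical copy, had a 323-base form listed at 0 in both shControl libraries and at 29.997 and 22.3 FPKM in shNeuroD1. ALDH3A2, a fatty aldehyde dehydrogenase, had a 190-base form at 5.99 and 6.85 FPKM in shControl, listed at 0 and at 0.339 in shNeuroD1. The forms of TMEM39A (5.55 and 3.05 FPKM in shControl) and of AP2M1, the AP-2 mu subunit (30.3 and 44.6), were listed at 0 in both shNeuroD1 libraries. A longer TMEM39A form, listed at 0 in the other 3 libraries, was 3.38 FPKM in shNeuroD1 replicate 2. In AP2M1, shNeuroD1 replicate 1 listed other forms of the set that overlaps it, at 23.1 and 7.90 FPKM. There, shNeuroD1 replicate 2 listed no form at all of that set, although the gene had 2349 counts in that library. Another 2 of the 20, in the pseudogenes DUXAP9 and PKD1P1, are uncertain because both have near-identical copies. The DUXAP9 form took 48.5% and 55.9% in shControl and 6.59% and 6.88% in shNeuroD1, and the PKD1P1 form took 19.4% and 19.7% in shControl and was listed at 0 in shNeuroD1.

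**Figure D4:**
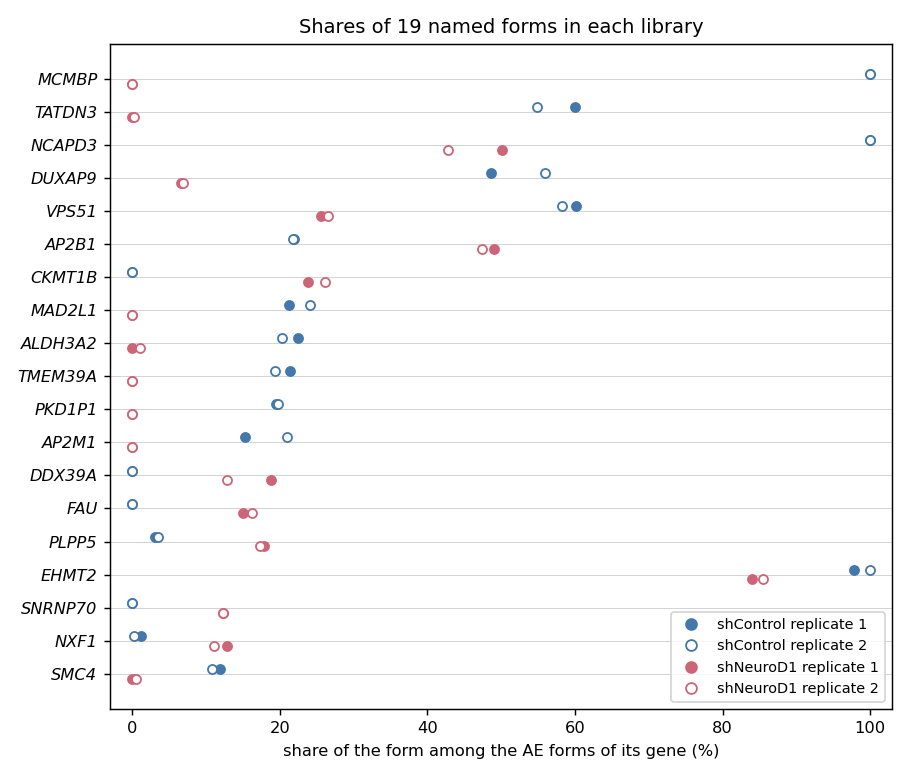
Share (%) of each of 19 of the 20 forms among the exon end forms of its assigned gene, in shControl (blue) and shNeuroD1 (red). Filled points are replicate 1 and open points replicate 2. The forms were chosen for groups that do not overlap, and they range from MCMBP, at 100% against 0%, to SMC4, at 11.9% and 10.7% against 0% and 0.448%.

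By counts 14 of the 20 genes passed an adjusted p of 0.05, 10 lower and 4 higher in shNeuroD1, where 28.2% of the 17537 genes tested were lower and 26.8% higher (edgeR). An exact 0 in these tables need not mean that a form was absent. Of 3919 genes whose exon end forms summed to a mean of at least 5 FPKM, 21 had every form listed at 0 in some library, and 13 of these had at least 1000 counts in that library. In CFL1, picked after its values were seen, the forms summed to 202 FPKM in shControl replicate 1 and were listed at 0 in the other 3 libraries, although the gene had at least 5381 counts in each. Where a whole class was at 0 the share was left out of the fit. Of the 21433 forms, 112 in 103 genes reached 1 FPKM in each shNeuroD1 library while shControl did not list them. In shControl, 73 forms in 71 genes reached that level while shNeuroD1 did not list them. The shNeuroD1 libraries listed more forms in all (17027 and 17016) than the shControl libraries (16613 and 16833). These counts were not scaled for that, and whether they differ beyond it was not tested. The same counts were not made for the other event classes.

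EIF4B was singled out after its values were seen, for its high level. It encodes a cofactor of the translation initiation helicase eIF4A, and its exon end lies at a donor pair 15 bases apart. The shorter form was 217 and 220 FPKM in shControl and 117 and 111 in shNeuroD1. The longer form was 17.7 and 8.64 FPKM in shControl and 88.9 and 103.5 in shNeuroD1. Of the pair, the longer form took 7.53% and 3.78% in shControl against 43.1% and 48.2% in shNeuroD1, so the groups did not overlap, and its adjusted p over all events was 0.288 (limma).

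Of the 17 genes that the study centres on, 8 had exon end forms and 7 had a form tested, 16 forms in all, none called. Shares given here are of all exon end forms of the gene, which can lie in several exons. In CDK4, the cyclin D partner kinase, the main form of 1 exon took 51.4% and 47.7% in shControl and 51.3% and 47.9% in shNeuroD1. A longer form that overlaps it took 0.540% and 5.27% in shControl and 1.14% and 1.60% in shNeuroD1. Most of the rest lay in a form of another exon, at 43.8% and 47.0% in shControl and 42.8% and 50.5% in shNeuroD1. In USP5, a deubiquitinase, a donor 69 bases further out gave a longer form at 4.71% and 4.13% in shControl and 6.63% and 9.74% in shNeuroD1 (adjusted p = 0.612). In USP7, another deubiquitinase, a 60-base form was listed at 0 in both shControl libraries and took 28.1% and 6.88% in shNeuroD1 (adjusted p = 0.575). In ALK, a receptor tyrosine kinase, a 1493-base form was listed at 0 in both shControl libraries and was 1.70 and 1.45 FPKM in shNeuroD1 (adjusted p = 0.803). The groups overlapped for both tested forms of USP36 and for 1 of the 2 of MDM2, whose other form took 54.96% and 50% in shControl and 49.99% and 49.995% in shNeuroD1 (adjusted p = 0.86). The 3 forms listed under NEUROD1 are counted in these totals but lie in exons of the neighbouring gene CERKL, so no exon end of NEUROD1 itself was tested. Of the CERKL forms, 1 was 4.34 and 5.39 FPKM in shControl and listed at 0 in both shNeuroD1 libraries (limma, adjusted p = 0.281). Another, of a different exon, was 4.78 and 7.74 FPKM in shControl and 2.28 and 2.51 in shNeuroD1. Its share was 50% and 58.9% in shControl. In both shNeuroD1 libraries, which listed no other of these forms, it was 100% (limma, adjusted p = 0.329). By counts CERKL was lower in shNeuroD1, with a log2 fold change of -1.87 (edgeR, adjusted p = 7.73e-19).

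The factors that choose splice sites were examined through their counts, from a list of 102 genes of which 97 were tested. In shNeuroD1 58 were lower, 14 higher and 25 did not pass, beside 28.2% lower and 26.8% higher of all genes tested (edgeR). All 20 hnRNP proteins were lower, at a median of -0.39 on the log2 scale, from HNRNPD at -0.65 to HNRNPL at -0.19. Of the 20 U2 and 3′ splice site factors 14 were lower and 2 higher, and of the 21 SR proteins and kinases 11 were lower and 2 higher, with SRSF7 at -0.76 and SRSF3 at -0.72. Of the 11 U1 and 5′ splice site factors 3 were lower, close to the share over all genes, and 1 higher. The falls were small: no member passed with a fall beyond 1 on the log2 scale.

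The tissue and neuronal regulators were split, with 10 lower and 9 higher of 25 tested. Both members beyond 1 on the log2 scale were CELF proteins, which regulate splicing in brain and muscle. CELF3 was 93.6 and 86.3 CPM in shControl and 264 and 274 in shNeuroD1, which edgeR put at 1.58 ± 0.05 on the log2 scale (SE; adjusted p = 7.59e-23). CELF5 was 12.0 and 12.2 CPM in shControl and 26.5 and 26.7 in shNeuroD1, which edgeR put at 1.13 ± 0.10 on the log2 scale (SE; adjusted p = 4.6e-11).

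**Figure D5:**
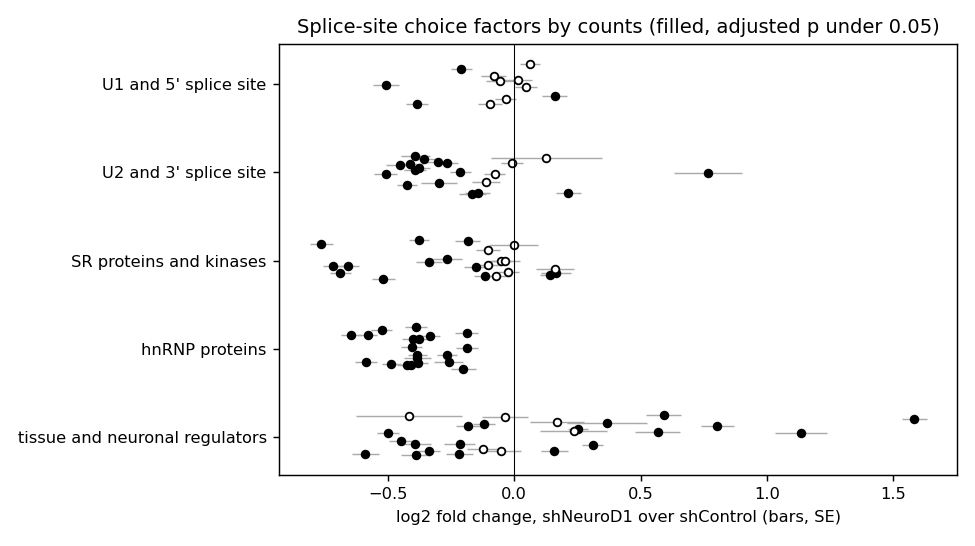
Log2 fold change by counts, shNeuroD1 over shControl, of the 97 splice-site choice factors tested, by subgroup; bars are the SE, filled points passed an adjusted p of 0.05 and open points did not. All 20 hnRNP proteins lie below 0, and CELF3 at 1.58 and CELF5 at 1.13 lie furthest to the right.

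The exon ends of these factors themselves were also examined. Of their 133 tested forms in 44 genes, 10 (7.52%) had groups that did not overlap and differed by at least 10 points, beside 10.5% of all exon end forms. Besides SNRNP70 they lay in RBFOX3, PRPF39, SRSF10 and SNRPA. RBFOX3, the neuronal splicing factor NeuN, was picked out after its values were seen: its 40-base form took 94.5% and 66.1% in shControl and 14.1% and 19.8% in shNeuroD1 (limma, adjusted p = 0.497). For S phase genes the count was 6 of 30 forms (20%), and for G2/M genes 8 of 52 (15.4%), none called in either list.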

How the data were processed

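RNAseq of IMR-32 cells covered 2 libraries per group, taken from their titles. The authors deposited a table of raw counts (60612 Ensembl genes) and for each library FPKM values of transcript and splicing events, where only events above 0 are listed. The submitters' processing notes name cutadapt 1.9.1, HISAT2 2.0.1, HTSeq 0.6.1, DESeq2 and the build hg38; the tool behind the event tables and whether counting was stranded were not given in the sources used here. The reads behind a form's FPKM are unknown, so no counting interval is given, and FPKM of assembled forms can move between overlapping forms.

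Exon end forms were compared in limma 3.58.1 (lmFit and eBayes with trend, two-sided, Benjamini-Hochberg over 55959 events of all classes) on log2((form + 1)/(rest of the class in the gene + 1)), after a mean class total of at least 5 FPKM and a mean share of 5% to 95%. Fold values on this scale understate changes of low forms. Counts were tested in edgeR 4.0.16 under R 4.3.3 (filterByExpr, minimum count 10, TMM, quasi-likelihood F test), with DESeq2 1.42.0 as an alternative. Both tests were tested on simulated data. There the test of shares recovered shifts when libraries of a group varied little and none when they varied widely. The simulated shares covered far fewer forms than the 55959 events of the real fit. Their recovery therefore does not say which shifts the real fit could detect.

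Segments and exon annotation came from GENCODE 29 on GRCh38. The members, gene lists, tests and the rule for named genes were chosen with earlier results of these data known. The rule took up to 20 genes with called forms, filled by smallest p among forms with groups that did not overlap and at least 10 points of difference; the genes the study names; members of the splice-site list with a called form or a log2 fold change beyond 1; and S phase and G2/M genes with a called form. Replicate number was not used as a block in the main fits, because nothing says that it pairs cultures. Over 8990 forms the deviations of same-numbered libraries correlated at -0.0199, which cannot tell whether those libraries were paired. 1 of the 20 genes so taken is not reported here.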

Additional observations from a re-analysis of the deposited data

How the results depend on the processing

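The absence of called exon end forms held under a class total of at least 1 FPKM, no filter, the arcsine square root of the share, no variance trend, overlapping forms as the denominator, exon end forms alone, the replicate block, each library left out in turn, an adjusted p alone and a difference of 20 points. A pseudocount of 0.1 called 2 forms higher, those of SNRNP70 and of FAU (listed under SYVN1), and 0 lower. diffSplice called 42 higher and 41 lower, 96 by the adjusted p alone and 41 at 20 points. With the replicate block the lowest adjusted p was 0.702, and 257 forms were higher and 273 lower at an unadjusted p under 0.05; by counts the block gave NEUROD1 at -2.77 and 58 factors lower and 14 higher, as without it. With overlapping forms as the denominator, 19.6% of forms in place of 10.5% had groups apart by at least 10 points, and the median replicate difference was 7.36 points in place of 3.01; with no filter that median was 1.72. With each library left out, NEUROD1 ranged from -2.84 to -2.71, the factors lower from 51 to 57 and higher from 10 to 11, and hnRNP proteins lower from 18 to 20; DESeq2 called 53 lower and 10 higher. The direction of the 20 named forms was fixed by their choice and is no sign of stability. A test of the counts of genes with called forms was not run, since none was called. Only 2 libraries a group and unknown depth per form limit what could be detected.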
